A study of Mus musculus with 10 samples.

Results

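Carboxylesterases are serine hydrolases of the endoplasmic reticulum lumen. They split esters, amides and thioesters, and their substrates include drugs and prodrugs as well as triglycerides, diglycerides and cholesteryl or retinyl esters. In the enterocyte they meet lipid and foreign compounds on their first pass through the body, and several family members have been tied to the handling of newly absorbed fat. The 10 genes listed here were Ces1d, Ces1e, Ces1f, Ces1g, Ces2a, Ces2b, Ces2c, Ces2e, Ces2g and Ces3a. Each was read from the probe set whose single gene symbol is that name. Values were found for 9 of the 10, out of 22180 genes named on the arrays, each from 1 probe set, and Ces2c was not analysed here. The genes were chosen by family, with their log2 fold changes between knockout and control on these arrays in view, so every difference between the groups below, and every count of members past a threshold, describes the values that chose them and supports nothing further.

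The arrays came from the jejunum of female mice aged 10 to 12 weeks. The 5 knockout samples (titles 1 to 5) had the genotype Pcyt1aLoxP/LoxP;VilCreERT2, in which a Cre switched on by tamoxifen and driven from the villin promoter, active in gut epithelium, removes Pcyt1a, the enzyme that sets the rate of phosphatidylcholine synthesis from choline. The 5 control samples (titles 6 to 10) were Pcyt1aLoxP/LoxP without the Cre. Both groups had received tamoxifen for 5 days, then a high fat diet for 4 days and an overnight fast, and 3 cm of mid small intestine was taken. The muscle, immune and stromal cells in such a piece do not express villin and keep the gene. The source labels of the controls also speak of intestine without this synthesis, against their titles and genotype, and the design text speaks of re-feeding whereas the sample labels give the fasted state.

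Pcyt1a separated the groups, at 7.46 ± 0.25 in knockouts and 9.39 ± 0.17 in controls (log2 intensity, SD, n = 5 each), and median log2 intensities of the arrays lay between 5.77 and 5.89. Several arrays stood apart in tissue makeup. Control 8 carried liver transcripts: 9 of 10 hepatocyte markers were highest there, albumin (Alb) reading 10.41 on control 8 against 5.18 to 6.75 on the other arrays. Smooth muscle markers (mean of 13) stood at 8.06 on knockout 1, and at 10.04 and 8.76 on controls 7 and 9, with 6.37 to 6.98 elsewhere. Paneth cell markers (mean of 10) were low on knockout 2 at 9.24, and on controls 6 and 8 at 9.29 and 9.86, and read 10.63 to 11.78 elsewhere. The mean of 17 enterocyte markers spanned 12.47 to 12.75 on knockout arrays, against 12.57 to 12.76 on control arrays. The mean of 9 crypt and dividing cell markers was 8.47 ± 0.38 in knockouts, against 7.86 ± 0.37 in controls, and 8 of the 9 genes were higher at an unadjusted p under 0.05 (0 at an adjusted p under 0.05, limma). Macrophage markers were higher at an unadjusted p under 0.05 for 4 of 10 genes, and goblet cell markers were lower for 4 of 8, 2 of them without overlap (0 called in both lists, limma). Of the 8 goblet cell markers 2 had a higher mean in knockouts, with log2 fold changes of at most 0.43. Over all genes 13.9% were past that unadjusted threshold, 5.56% lower, and 0.965% were lower without overlap. All 10 hepatocyte markers had a lower mean in knockouts. Their list mean read 6.93 on control 8, 5.25 to 5.52 on the other controls and 5.07 to 5.37 on knockouts. B and plasma cell markers (mean of 11) read 7.22 and 6.70 on controls 8 and 9 and at most 5.81 elsewhere. In that list Jchain ran otherwise, at 10.06 on control 8, 8.17 on control 9, its lowest, and 9.75 to 10.46 in knockouts. Mzb1 read 5.7 to 6.24 over all arrays. The part of these cell types in the differences below was not tested.

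In the RefSeq annotation of the mouse assembly GRCm38.p6, 20 carboxylesterase genes lie on chromosome 8 in 2 blocks with 68 other protein-coding genes between them. The first block holds 9 of them, running from Ces1a to Ces1h and ending with Ces5a, and Ces1d, Ces1e, Ces1f and Ces1g are consecutive carboxylesterase genes in it. The other block holds 11, from Ces2a to Ces4a, with Ces2a, Ces2b, Ces2c, Ces2d-ps and Ces2e at its start and Ces2g, Ces2h and Ces3a further along. The build behind the probe sets is not given in the sources used here, so this order serves only to say which genes are neighbours. RefSeq promoter windows, from 250 bases before to 50 bases after the gene start, were matched for 6 of the 10 members. The windows are given for the 5 of these with array values. Ces1e, Ces1g and Ces2g are set before Ces2a and Ces2e, after the within-group pattern described further on, which was picked out once the values had been seen. Letters run 5′ to 3′ on the gene's strand, and capitals mark AGATAA, a form of the GATA factor motif, read on either strand. They are chr8:93229570-93229869 (minus strand) for Ces1e, chr8:93337160-93337459 (minus) for Ces1g, chr8:104961468-104961767 (plus) for Ces2g, chr8:104733753-104734052 (plus) for Ces2a and chr8:104926010-104926309 (plus) for Ces2e, all in GRCm38.p6.
Ces1e: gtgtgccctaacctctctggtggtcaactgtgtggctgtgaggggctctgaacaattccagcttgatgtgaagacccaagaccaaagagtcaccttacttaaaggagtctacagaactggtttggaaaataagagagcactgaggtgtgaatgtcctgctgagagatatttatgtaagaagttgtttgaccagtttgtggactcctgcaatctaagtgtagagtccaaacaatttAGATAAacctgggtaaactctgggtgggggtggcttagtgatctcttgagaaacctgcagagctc
Ces1g: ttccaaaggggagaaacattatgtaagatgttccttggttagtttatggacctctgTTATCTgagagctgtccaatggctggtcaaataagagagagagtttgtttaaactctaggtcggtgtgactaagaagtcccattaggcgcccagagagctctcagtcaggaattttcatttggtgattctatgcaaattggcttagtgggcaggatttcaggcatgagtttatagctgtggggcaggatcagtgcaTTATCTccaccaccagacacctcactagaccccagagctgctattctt
Ces2g: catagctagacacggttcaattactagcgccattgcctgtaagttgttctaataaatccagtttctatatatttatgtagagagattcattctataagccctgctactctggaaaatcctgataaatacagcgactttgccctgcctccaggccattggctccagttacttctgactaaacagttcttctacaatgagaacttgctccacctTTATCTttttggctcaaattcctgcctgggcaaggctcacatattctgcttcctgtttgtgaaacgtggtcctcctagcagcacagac
Ces2a: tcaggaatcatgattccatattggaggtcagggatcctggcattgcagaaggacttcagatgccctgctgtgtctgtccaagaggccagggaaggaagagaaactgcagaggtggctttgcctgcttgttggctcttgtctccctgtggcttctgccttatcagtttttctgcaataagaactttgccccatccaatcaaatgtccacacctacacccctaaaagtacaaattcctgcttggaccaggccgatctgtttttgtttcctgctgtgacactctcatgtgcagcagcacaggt
Ces2e: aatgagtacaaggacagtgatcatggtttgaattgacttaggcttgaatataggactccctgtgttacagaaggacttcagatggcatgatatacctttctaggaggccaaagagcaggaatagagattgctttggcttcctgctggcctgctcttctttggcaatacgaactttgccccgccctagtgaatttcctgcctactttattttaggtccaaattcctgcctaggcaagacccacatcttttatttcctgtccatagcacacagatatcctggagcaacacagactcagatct

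AGATAA occurred once in the Ces1e window, in 2 places in the Ces1g window and in 1 place in the Ces2g window, and was not found in those of Ces2a and Ces2e. It was present in 11.2% of all 32851 promoter windows. Counted from the gene start, the match in Ces1e lies at -15 to -10 and that in Ces2g at -38 to -33, while those in Ces1g lie at -194 to -189 and at 2 to 7 after the start. The shorter core GATAA, which AGATAA contains, was present in 25.4% of all windows and added a match in the Ces2a window, at -93 to -89, and a further match in Ces2g. All motifs were searched on both strands. TATAAA, the TATA box, was found on the minus strand of the window for Ces1g, where it overlaps a match to the CDX motif TTTATNG (13.6% and 10.9% of all windows). The HNF4 motif CAAAGNNCA was found in the Ces2e window (6.36% of all windows), and the antioxidant response element TGACNNNGC (12.4%) was found in none of the 5. Aligned end to end, the Ces2a and Ces2e windows were 54.9% identical with a longest shared run of 17 bases, and Ces2e and Ces2g were also 54.9% identical, with a run of 13 bases. Ces1e and Ces1g were 47% identical, within the 44.1% to 50.5% between windows of different blocks. These matches are a description of the letters in the windows. AGATAA is only 1 of the several motifs searched, and a link between any of them and the within-group pattern was not tested.

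Across the contrast, 8 of the 9 members had a lower mean in knockouts, and Ces1f differed by 0.02 on the log2 scale. The median log2 fold change, knockout minus control, was -0.37, where the median over all genes was -0.01 and 53.2% of genes were negative. The values of 1 member, Ces2a, did not overlap between the groups, and 0.965% of all genes were lower without overlap in the same way. In limma's fit across all genes 0 of the 9 members were called at an adjusted p under 0.05, against 0.0271% of all genes (0.0225% lower and 0.00451% higher). At an unadjusted p under 0.05, 2 members, Ces1d and Ces2a, were lower, and 13.9% of all genes were past it, 5.56% lower. These counts are set beside the shares of all genes as a description only. Without knockout 2 the fit called 452 genes, 2.04% of all, and Ces2a was among them. In a bulk piece of tissue, fewer cells of a type and less RNA per cell cannot be told apart. The crypt and dividing cell mean differed between the groups, at 8.47 ± 0.38 in knockouts and 7.86 ± 0.37 in controls, though Lgr5 in that list was at -0.42. As a covariate it shares much of its course with genotype, so the fit cannot tell the 2 apart. In that fit, added after the data had been seen, the members' median was -0.03 with 5 of 9 negative, where the median over all genes was 0.01. Ces2a was then at -0.53 (SE 0.16), Ces1d at -0.33 (SE 0.24) and Ces1g at 0.16 (SE 0.35). The plot of each member by array shows that the spread inside a group differed widely from gene to gene.

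**Figure D1:**
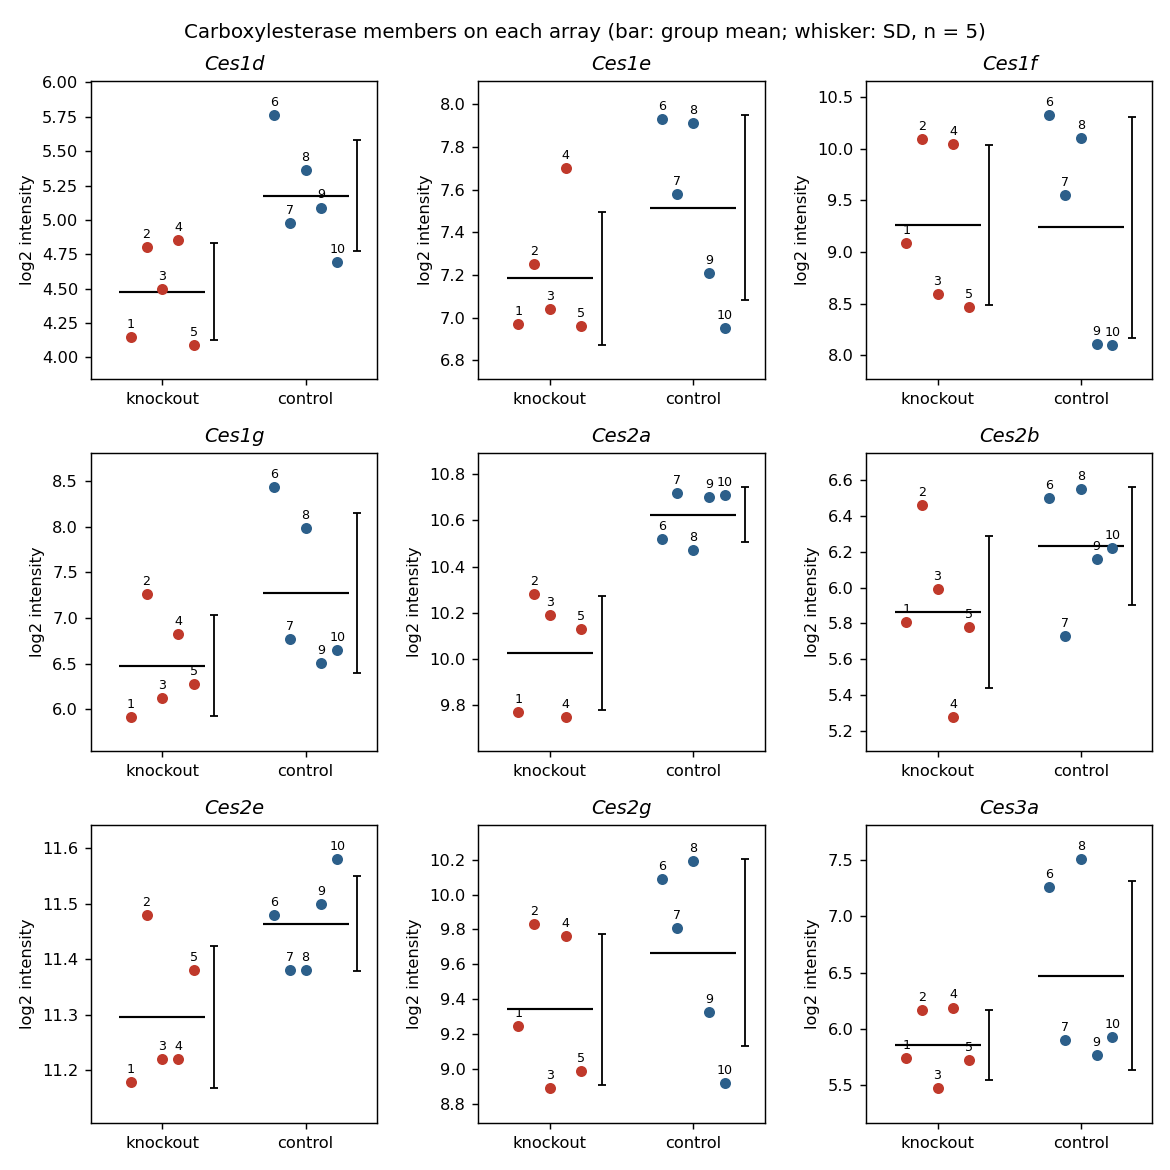
Log2 intensity (y axes, different ranges) of the 9 measured members on each array, with knockout arrays 1 to 5 left of control arrays 6 to 10, the bar at the group mean and the whisker showing SD. Ces2a knockout arrays lie at 9.75 to 10.28, below all control arrays at 10.47 to 10.72, while Ces1f spans 8.47 to 10.09 in knockouts and 8.1 to 10.32 in controls.

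Among the members of the Ces2 branch, whose human counterpart CES2 is the main drug-hydrolysing carboxylesterase of the small intestine, Ces2a gave the clearest separation. Ces2a read 9.77, 10.28, 10.19, 9.75 and 10.13 on knockout arrays 1 to 5, against 10.52, 10.72, 10.47, 10.7 and 10.71 on control arrays 6 to 10. Every knockout array was below every control array, and the controls were tightly grouped. Its mean was 10.02 ± 0.25 in knockouts and 10.62 ± 0.12 in controls (log2 intensity, SD, n = 5 each). The log2 fold change was -0.60 (SE 0.12), or 0.66 of the control level on the linear scale. The difference was -0.75 without knockout 2, control 6 and control 8, the arrays lowest in Paneth markers, -0.64 without control 8, which carried the liver transcripts, and -0.62 with the mean of proximal intestine markers, given further on, as a covariate. It was -0.48 without knockout 1, control 7 and control 9, the arrays highest in smooth muscle.

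Ces2e, another intestinal member of this branch, varied least between arrays. Ces2e read 11.18, 11.48, 11.22, 11.22 and 11.38 in knockouts, against 11.48, 11.38, 11.38, 11.5 and 11.58 in controls. The groups overlapped, with knockout 2 level with control 6, and the log2 fold change was -0.17 (SE 0.09). Ces2b read 5.81, 6.46, 5.99, 5.28 and 5.78 in knockouts, against 6.5, 5.73, 6.55, 6.16 and 6.22 in controls. Knockout 4 was lowest and knockout 2 stood among the controls, and the log2 fold change of -0.37 (SE 0.21) was -0.22 without knockout 4. Ces2g followed a course of its own within this branch, high on knockouts 2 and 4 and on controls 6, 7 and 8. It read 9.25, 9.83, 8.89, 9.76 and 8.99 in knockouts, against 10.09, 9.81, 10.19, 9.33 and 8.92 in controls, and its log2 fold change was -0.32 (SE 0.26). It was -0.19 without control 8, -0.21 without knockout 3 and -0.51 without control 10.

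The Ces1 members include enzymes known from liver and fat as triglyceride hydrolases. Ces1d, known as triacylglycerol hydrolase, read 4.15, 4.8, 4.5, 4.85 and 4.09 in knockouts, against 5.76, 4.98, 5.36, 5.09 and 4.69 in controls. Control 10 lay below knockouts 2 and 4, and the other 4 controls lay above every knockout. Its mean was 4.48 ± 0.35 in knockouts and 5.18 ± 0.41 in controls (log2 intensity, SD, n = 5 each). The difference of -0.70 (SE 0.21) was measured near the low end of the arrays' range, where background makes up more of an intensity. No background readings were used, so presence of the transcript was not assessed, for this or any other gene. Ces2b and Ces3a, each at a mean of 5.86 in knockouts, lay near the array medians of 5.77 to 5.89.

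Ces1g, a hydrolase of triglycerides and cholesteryl esters whose loss in mice alters blood lipids, had the most negative difference of the 9. It read 5.92, 7.26, 6.12, 6.82 and 6.28 in knockouts, against 8.43, 6.77, 7.98, 6.51 and 6.65 in controls. Controls 6 and 8 stood above all other arrays, while controls 7, 9 and 10 lay among the knockouts. The log2 fold change was -0.79 (SE 0.38), and it was -0.50 without control 6 and -0.36 without knockout 2, control 6 and control 8. Ces3a, which neighbours the Ces2 genes, had the same 2 high controls. It read 5.74, 6.17, 5.47, 6.19 and 5.72 in knockouts, against 7.26, 5.9, 7.51, 5.77 and 5.93 in controls. The log2 fold change was -0.62 (SE 0.33), and it was -0.36 without control 8 and -0.09 without knockout 2, control 6 and control 8.

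Ces1e, known as egasyn, holds beta-glucuronidase (Gusb) in the endoplasmic reticulum. It read 6.97, 7.25, 7.04, 7.7 and 6.96 in knockouts, against 7.93, 7.58, 7.91, 7.21 and 6.95 in controls, and the groups overlapped over most of their range, with a log2 fold change of -0.33 (SE 0.21). Its partner Gusb read 8.08, 8.12, 8.11, 8.17 and 7.82 in knockouts, against 7.58, 7.47, 7.65, 7.29 and 7.15 in controls. Every knockout array was above every control array, as was so for 1.64% of all genes, and the difference of 0.63 (SE 0.11, limma adjusted p = 0.107) did not pass. Gusb passed in 4 of the alternative fits, among them the fit without knockout 2 that called 2.04% of all genes (adjusted p = 0.0357).

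Ces1f, a liver hydrolase of lipid droplet triglyceride, had nearly the same mean in both groups and the widest spread. It read 9.09, 10.09, 8.59, 10.04 and 8.47 in knockouts, against 10.32, 9.55, 10.1, 8.11 and 8.1 in controls. Arrays of both genotypes were spread from low to high, knockout 1 and control 7 in the middle, with a range of 1.62 within knockouts and 2.22 within controls on the log2 scale. The means were 9.26 ± 0.77 in knockouts and 9.24 ± 1.07 in controls (log2 intensity, SD, n = 5 each). They differed by 0.02 (SE 0.49), and the 95% interval of -1.05 to 1.09 leaves room for a difference in either direction, and its sign changed under 8 of 26 alternative settings.

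**Figure D2:**
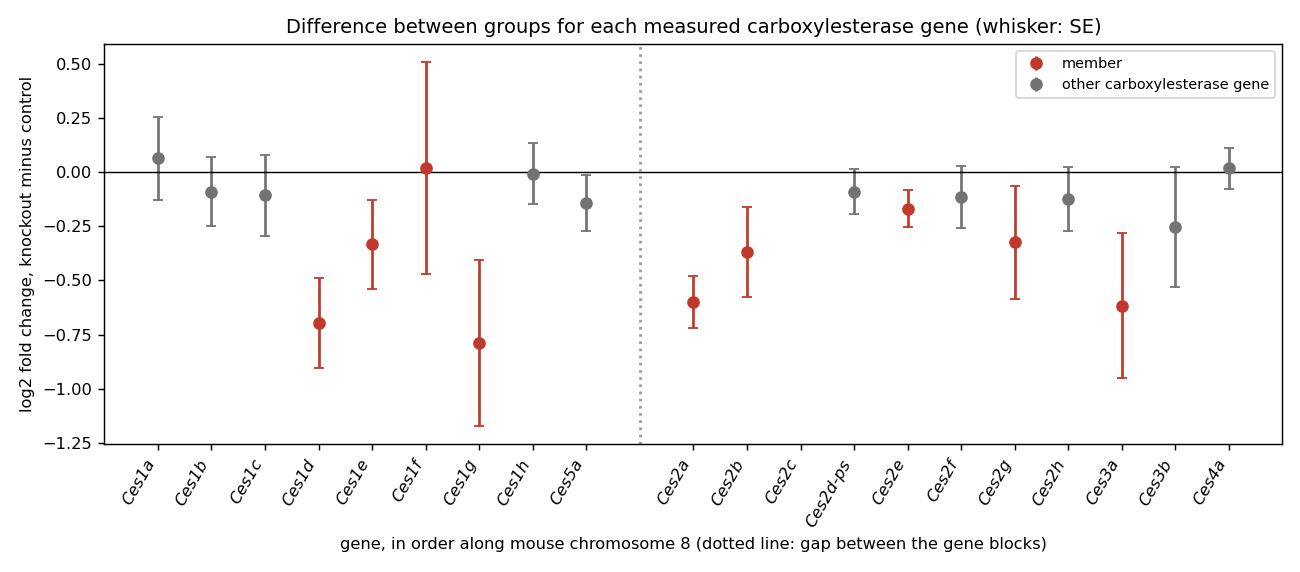
Log2 fold change, knockout minus control (y axis, whisker SE), of the 19 measured carboxylesterase genes in their order along mouse chromosome 8 (x axis, dotted line between the 2 gene blocks; Ces2c has no point). The members (red) lie between -0.79 and 0.02 and the 10 other family genes (grey) between -0.25 and 0.06.

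The rest of the family is what the choice of members left over. Of its 10 genes with values, 0 passed limma's test over all genes (0 also at an unadjusted p under 0.05, where 13.9% of all genes were past it). They were Ces1a, Ces1b, Ces1c, Ces1h, Ces2d-ps, Ces2f, Ces2h, Ces3b, Ces4a and Ces5a, and Ces2d of the list was not analysed here. Mean log2 intensities were 3.78 to 5.87 for all but Ces2d-ps at 6.83, near or below the array medians of 5.77 to 5.89. Of the 10, 5 had a mean of at least 5 and 1 of at least 6. At such levels background makes up more of an intensity, so a narrow range of differences does not show unchanged expression. The log2 fold changes of the 10 lay between -0.25 and 0.06, with a median of -0.10 and 8 of 10 negative. The median was -0.02 without control 6, -0.17 without control 7 and 0.07 with the crypt and dividing cell covariate. The lowest was that of Ces3b at -0.25 (SE 0.28), with 3.61 to 5.18 in knockouts and 4.25 to 5.36 in controls. Ces1c, a plasma esterase secreted by the liver, read 6.37 on knockout 3 and 6.44 on control 8, and 5.56 to 6.07 on the other 8 arrays, with a log2 fold change of -0.11 (SE 0.19). Members of the family are close paralogs, so probes of a pair can share signal.

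Within the groups the members followed more than a single pattern. With each array set against the mean of its own group, Ces1d, Ces1e, Ces1f, Ces1g, Ces2g and Ces3a lay above the group mean together on knockouts 2 and 4 and on controls 6 and 8, all 6 genes on each of these arrays. On knockouts 1 and 5 and on controls 9 and 10, 0 of the 6 did, and 1 did on knockout 3 and 3 on control 7. Pearson correlations between the 6 genes, over the 10 arrays with group means removed, were 0.72 to 0.97 over the 15 pairs (Spearman 0.65 to 0.92). They were 0.58 to 0.98 when the 2 arrays farthest from the median were left out of each pair. The strongest pair was Ces1f and Ces2g, at 0.97 (Spearman 0.92), although these genes lie in different blocks of the chromosome. Ces2a and Ces2e did not share this course. Controls 6 and 8, high in the 6 genes, were the 2 controls lowest in Ces2a. Knockouts 2 and 4 were also high in the 6 genes. Of these, knockout 2 was the knockout highest in Ces2a and in Ces2e, while knockout 4 was the lowest in Ces2a at 9.75. Ces2a correlated with the 6 genes at -0.38 to 0.31 within knockouts and at -0.99 to -0.78 within controls (Pearson, n = 5 arrays each). With the groups pooled after removal of their means, which mixes these unlike courses, Ces2a and Ces2e gave correlations of -0.49 to 0.15 against the 6 genes (Spearman -0.41 to 0.09). Ces2a and Ces2e correlated at 0.65 with each other (Spearman 0.57), or at 0.49 without the 2 arrays farthest from the median. Ces2b correlated with the 6 genes at -0.01 to 0.50 and with Ces2e at 0.48, and these values rested on few arrays. Without the 2 farthest arrays its value was 0.12 with Ces1g, 0.03 with Ces2e and 0.74 with Ces3a. The 6 genes were picked out after their values were seen, the arrays share tissue makeup, and these correlations are given as a description with no test.

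**Figure D3:**
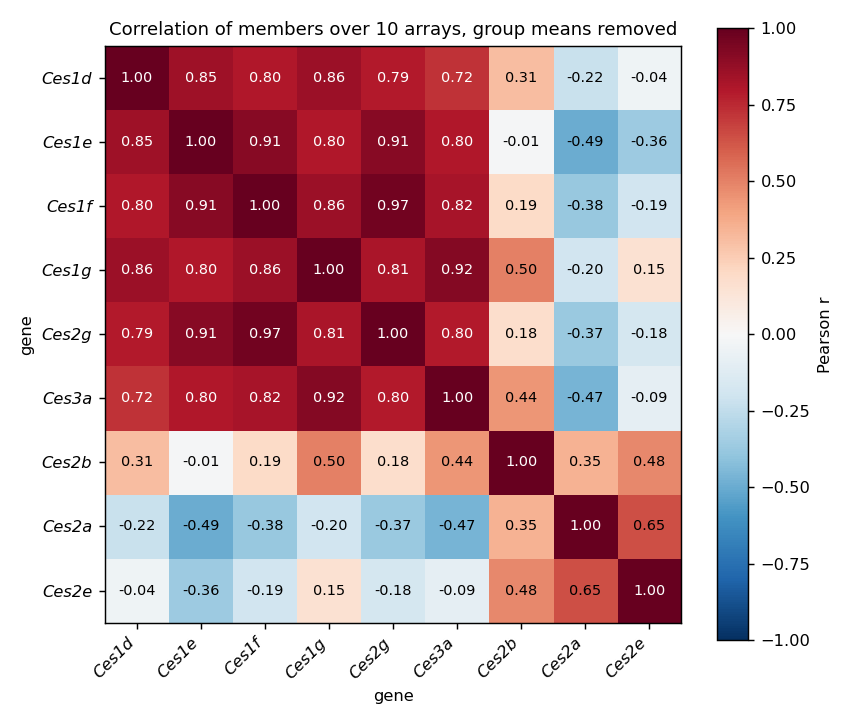
Pearson correlation between each pair of measured members over the 10 arrays after each group's mean was removed (colour and number, both axes list the genes). The 6 genes at the top left correlate at 0.72 to 0.97, whereas Ces2a and Ces2e correlate with them at -0.49 to 0.15.

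Markers of position along the small intestine moved with this pattern. They were chosen after the data had been seen. The mean of 8 genes of the proximal small intestine, among them the folate transporter Slc46a1 and the transcription factors Onecut2 and Gata4, was 8.31, 8.98, 8.17, 8.93 and 8.53 on knockouts 1 to 5, against 9.17, 8.86, 9.12, 8.35 and 8.27 on controls 6 to 10. It was high on the same arrays as the 6 genes, and correlated with them at 0.77 to 0.95 (Spearman 0.75 to 0.93, group means removed, n = 10 arrays), or 0.79 to 0.93 without the 2 arrays farthest from the median. Slc46a1 read 8.71, 11.44, 8.67, 11.13 and 9.96 in knockouts, against 11.94, 10.81, 11.53, 9.45 and 9.02 in controls. Slc46a1 and Onecut2 had the widest ranges of the 8, Onecut2 spanning 6.38 to 8.33 in knockouts and 6.48 to 8.94 in controls. Gata4 spanned only 9.3 to 9.56 in knockouts and 9.21 to 9.52 in controls, and the iron reductase Cybrd1 ran otherwise, lowest among knockouts on knockout 2 at 5.59. The mean of 9 distal genes, among them neurotensin (Nts), the vitamin B12 receptor cubilin (Cubn) and the transcription factor Osr2, was 7.62, 7.64, 8.19, 7.31 and 7.98 in knockouts, against 7.54, 7.66, 7.48, 8.48 and 8.76 in controls. Controls 9 and 10, the lowest in Ces1f, were the highest in the distal mean, and the 6 genes correlated with it at -0.93 to -0.64 (Spearman -0.90 to -0.64), or -0.88 to -0.51 without the 2 farthest arrays. Within their groups Nts and Osr2 were lowest on knockouts 2 and 4 and on controls 6 and 8. Cubn on knockout 2 (11.72) was below only knockout 5 (12.15) among knockouts, and Gpbar1 was highest on control 7 (6.15). Fabp6 stood at 7.48 on knockout 3 and at most 5.73 elsewhere, and Slc10a2 at 7.27 on control 10 and at most 5.92 elsewhere.

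Other cell markers moved with the 6 genes too. Correlations with the Paneth cell mean were -0.95 to -0.65 (Spearman -0.81 to -0.56) and with the mean of 8 goblet cell markers -0.93 to -0.78 (Spearman -0.84 to -0.66). The goblet genes did not move as one. Spink4 and Agr2 were lowest among knockouts on knockout 2 (9.87 and 10.29) and among controls on control 6 (9.3 and 10.49). Muc2 was lowest on knockout 4 and control 8 (12.52 and 13.03). Zg16 was highest among knockouts on knockout 2 (12.66), and Fcgbp and Tff3 among controls on control 6 (12.64 and 11.46). With the hepatocyte mean the correlations of the 6 genes were 0.32 to 0.75 (Spearman 0.44 to 0.71), highest for Ces3a, whose top array was control 8. With the mean of 10 adipocyte markers they were 0.51 to 0.84 (Spearman 0.44 to 0.78). Within that list the hormone adiponectin (Adipoq) read 3.48 to 4.11 in knockouts and 3.38 to 4.13 in controls. The lipid droplet protein Plin4 read 7.35 on control 7 and at most 5.75 elsewhere, and Car3 read 7.62 on control 8 and at most 5.80 elsewhere. Pck1, Cidec and Pparg read 10.73 to 12.41, 9.5 to 10.47 and 7.1 to 8.34, each highest on control 6 and next on knockout 2. Lep, Plin1 and Retn read at most 5.77 on any array, and this mean cannot be read as fat content. For Ces2a, Ces2b and Ces2e the correlations were -0.26 to 0.18 with the proximal mean and -0.59 to 0.03 with the Paneth mean. With the distal mean they were 0.05 (Ces2b) to 0.56 (Ces2a), with Spearman values of -0.10 to 0.55. With the enterocyte mean they were 0.09 (Ces2a) to 0.68 (Ces2e), against 0.36 to 0.75 for the 6 genes. When the proximal mean entered the fit, a choice made with the data in view, the log2 fold change was -0.57 (SE 0.15) for Ces1d, -0.51 (SE 0.20) for Ces1g and 0.40 (SE 0.19) for Ces1f. With the distal mean in its place these were -0.82 (SE 0.18), -1.03 (SE 0.31) and -0.40 (SE 0.21). The sign for Ces1f therefore depended on which position markers were used, and the part of the other cell types in these differences was not tested.

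**Figure D4:**
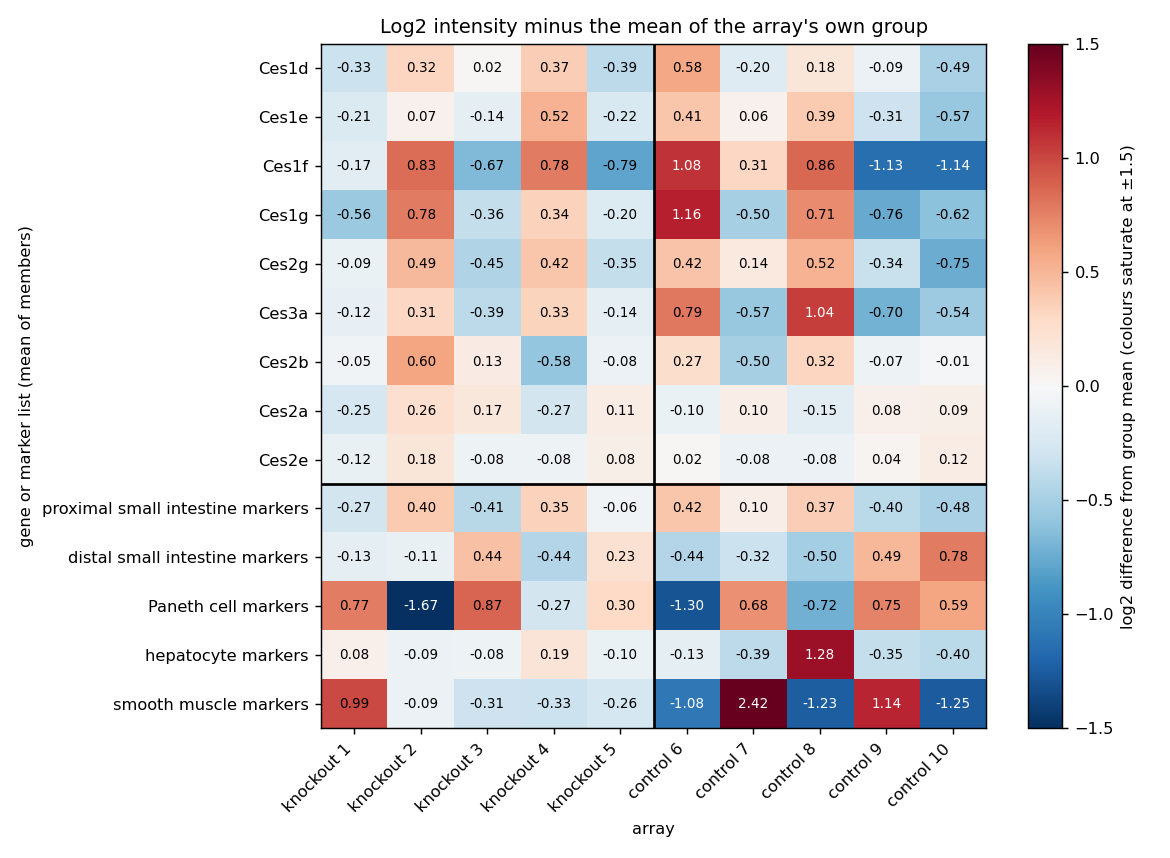
Log2 intensity of the 9 members (upper rows) and means of 5 marker lists (lower rows) on each array, as the difference from the mean of the array's own group (colour and number; knockout arrays 1 to 5 left of control arrays 6 to 10). The upper 6 genes are positive on knockouts 2 and 4 and controls 6 and 8, where proximal markers are also positive and Paneth markers negative.

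The genes outside the family whose within-group course was most like the mean of the 9 members, each scaled to the same spread, were Sectm1a (Pearson r = 0.988), Idnk (0.983), Dcun1d4 (0.981), Samhd1 (0.977), Slc19a2 (0.975), Rab43 (0.969), Acox2 (0.969) and Elmo1 (0.968), over 10 arrays. Their Spearman values were 0.83 to 0.98. Slc19a2 is a thiamine transporter, Samhd1 a nucleotide triphosphate hydrolase and Acox2 a peroxisomal oxidase of branched chains and bile acid intermediates. Sectm1a read 5.84 to 7.18 in knockouts and 6.3 to 7.54 in controls, and differed by -0.41 (SE 0.28). The 8 were taken as the highest over all genes outside the family, so the values serve only to name them.

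Genes that work beside the carboxylesterases were taken from lists written from textbook roles. For every list count below, 13.9% of all genes had an unadjusted p under 0.05 (limma) and 0.0271% passed. Among 22 other lipid and ester hydrolases 0 passed over all genes (limma, median log2 fold change -0.04), and 1 had an unadjusted p under 0.05. The arylacetamide deacetylase Aadac, which shares the reticulum lumen and many ester substrates with the family, was at 0.02 (SE 0.19), and read 9.91 to 10.48 in knockouts and 9.74 to 10.67 in controls. The cytosolic lipases Lipe and Pnpla2 were at -0.12 (SE 0.10) and -0.13 (SE 0.10), and the monoglyceride lipase Mgll at -0.19 (SE 0.14). The 95% interval of each of these 4 genes included 0.

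Of 22 genes of triglyceride resynthesis and chylomicron assembly, 0 passed and 4 had an unadjusted p under 0.05, against 13.9% of all genes (median 0.06). Mogat2, which joins a fatty acid to monoglyceride, was at 0.08 (SE 0.10), and the final acyltransferases Dgat1 and Dgat2 at 0.02 (SE 0.08) and -0.31 (SE 0.20). The lipid transfer protein Mttp was at 0.13 (SE 0.08) and the chylomicron scaffold Apob at -0.10 (SE 0.09). Apoc3, which slows lipoprotein clearance, was at -0.43 (SE 0.10, limma adjusted p = 0.129). Its groups narrowly did not overlap, at 8.39 to 8.92 in knockouts against 8.94 to 9.1 in controls, and 0.965% of all genes were lower without overlap. Apoc3 passed without knockout 2, as did 2.04% of all genes, at -0.51 (SE 0.09, limma adjusted p = 0.0215).

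Of 18 measured xenobiotic receptor genes and targets, 0 passed and 2 had an unadjusted p under 0.05, against 13.9% of all genes. A negative log2 fold change was seen for 14 of the 18 (median -0.20), and for 53.2% of all genes. The median turned to 0.16 with the crypt and dividing cell covariate and to 0.03 with the adipocyte covariate, and was -0.14 without knockout 3. Nr1i2, the pregnane X receptor that senses drugs and bile acids, was at -0.21 (SE 0.12). Its target Cyp3a11 read 8.52, 10.23, 8.4, 9.21 and 9.36 in knockouts, against 10.23, 9.89, 9.85, 9.33 and 9.29 in controls. Knockout 2 matched the highest control, and the log2 fold change was -0.57 (SE 0.31). Cyp3a13 was at -0.21 (SE 0.15) and Cyp2c65 at 0.004 (SE 0.16). Without knockout 2, in the fit that called 2.04% of all genes, the cytochromes Cyp2c66 (-1.30, SE 0.16, limma adjusted p = 0.0145) and Cyp2b10 (-1.01, SE 0.20, limma adjusted p = 0.0373) passed.

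The receptors that return proteins with a KDEL-like tail to the reticulum, through which the carboxylesterases are retained, gave no call. Kdelr1 was at 0.06 (SE 0.09), Kdelr2 at 0.14 (SE 0.09) and Kdelr3 at 0.10 (SE 0.25). In the list of 9 measured genes for retention and anchoring, which also holds Gusb and chaperones, 0 passed, 3 had an unadjusted p under 0.05 and all 9 log2 fold changes were positive (median 0.14). Over all genes 53.2% were negative. Among genes with a mean log2 intensity of at least 6, which all 9 had, 42.5% were negative. Of 20 transcription factors of the absorptive epithelium, 0 passed and 1 had an unadjusted p under 0.05 (median -0.03). Hnf4a was at 0.05 (SE 0.10), Hnf4g at -0.02 (SE 0.11), the fatty acid receptor Ppara at -0.28 (SE 0.16) and the bile acid receptor Nr1h4 at 0.21 (SE 0.11), and each of these intervals included 0.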

How the data were processed

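RNA from 10 jejunum samples was hybridised to Affymetrix whole-transcript arrays, 1 array per sample. Per the submitters' processing notes, the authors made the deposited intensities in Expression Console 1.4.1.46 of Affymetrix by the RMA method, which corrects background, equalises array distributions and summarises probes, which narrows differences of dim genes. The deposited values were linear, where log2 values had been foreseen, so log2 was taken first. All log2 values are multiples of 0.01, which is their resolution. Of 34472 probe sets 23521 had 1 gene symbol in the platform annotation, and the probe set with the highest mean was kept per gene, which gave 22180 genes without an intensity filter. All 9 measured members carried a gene ID that matched the same symbol in RefSeq (GRCm38.p6). Groups came from the titles. A linear model with genotype as its term was fitted to all genes (limma 3.58.1, R 4.3.3, lmFit and eBayes, two-sided, Benjamini-Hochberg over all genes, called at adjusted p under 0.05), after a test on simulated data. Nothing says that the samples came from separate mice, so SE and p reflect the spread between these samples, and the number of arrays limits precision. Members and lists were chosen with earlier results of these data known. The text names Pcyt1a, all members and other carboxylesterase genes, list genes picked by role with those earlier results known, any list gene called, and the 8 genes most like the members. Marker genes, and Cyp2c66 and Cyp2b10, were named after their values were seen. Ugt1a1, also among the chosen genes, was not analysed here. Alternatives left out single arrays or sets of 3, changed scaling, filter, variance model, array weights and probe set choice, or added a marker mean as a covariate.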

Additional observations from a re-analysis of the deposited data

Results flagged for a closer look

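Among 84 groups of 5 arrays checked for the genes above, 4 held an array far from the other 4 by Dixon's test at the 95% level, which chance gives in about 1 in 20 groups. Ces1a read 5.55 on knockout 1, where the next knockout read 4.76. Ces2f read 5.28 on control 6, where the next control read 4.81. Cyp2c65 read 10.89 on knockout 2, where the next knockout read 10.26. Gusb read 7.82 on knockout 5, where the next knockout read 8.08. No member of the 9 was among them.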

How the results depend on the processing

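The median log2 fold change of the members was negative in all 26 alternative settings, between -0.55 and -0.03, the last with the crypt and dividing cell covariate, and between -0.52 and -0.29 with any 1 array left out. Ces1f changed sign in 8 settings (-0.40 to 1.06), Ces1e and Ces2g with the adipocyte covariate (0.01 and 0.18), Ces1g, Ces2b and Ces2g with the crypt covariate (0.16, 0.05 and 0.06), and the other members, Ces1d, Ces2a, Ces2e and Ces3a, in 0. Ces2a was past the threshold without knockout 2 and with the Paneth covariate, fits that called 2.04% and 1.24% of all genes, and no other member was in any setting. These member calls are descriptions. The count of genes called over all genes, 6, was 2 to 452 with any 1 array left out, the highest without knockout 2. It was 2 with median centring, a further quantile normalisation, the enterocyte covariate or without the 3 arrays highest in smooth muscle, 10 with a mean-dependent prior variance, 276 with the Paneth covariate, 31 with the adipocyte covariate, 69 without the 3 arrays lowest in Paneth markers, 43 with the proximal covariate, 17 with the distal one and 3 with the crypt one. The last 3 were added after seeing the data. The retention list gained 1 call with the Paneth, adipocyte or proximal covariate, the chylomicron list 1 with the Paneth covariate and the xenobiotic list 1 without the 3 arrays lowest in Paneth markers. With any 1 array left out these lists had 0 to 1, 0 to 1 and 0 to 2 calls. List medians with any 1 array left out were -0.08 to 0.01 for other hydrolases and for transcription factors, and -0.30 to -0.14 for xenobiotic genes. The cause was not tested. No paired analysis was possible because the replicate numbers of the groups, 1 to 5 and 6 to 10, do not overlap.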
